A study of Arabidopsis thaliana with 4 samples.

Results

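The UGT76C cluster is a run of 5 neighbouring Arabidopsis genes for UDP-glycosyltransferases (UGTs), enzymes that join a sugar to a small molecule. In chromosomal order on chromosome 5 it holds UGT76C2 (AT5G05860), UGT76C1 (AT5G05870), AT5G05880, AT5G05890 and AT5G05900. The last 3 were listed for the cluster under the names UGT76C4, UGT76C5 and UGT76C3, and are called here by locus because the annotation used gives them no name. The members were taken by locus, through the transcript that each array probe is annotated to, and make 5 of the 25347 loci that the array's probes matched. Each member had 1 probe. The cluster was chosen by the measured log2 ratio of vim1,2,3 over Col, in which UGT76C1 was already known to stand apart in these data, so the ratios of its members are described below without a test.

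The labels describe one RNA as that of the vim1,2,3 triple mutant and the other as that of wild-type plants of the Col strain, both from seedlings. Both kinds of seedling were 14 days old, grown on B5 medium in days of 16 h light with nights of 8 h, and were collected 6 h into the light period. The mutant alleles and the strain that carries them are not named in the labels, and the labels name no tissue beyond the seedling. Each of 4 arrays compared 1 RNA labelled vim1,2,3, marked with the red dye Cy5, with 1 RNA labelled Col, marked with the green dye Cy3, and the series describes the 4 samples as biologically independent. The dyes were not exchanged on any array, so a dye effect and a genotype effect on a probe cannot be told apart.

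Cytokinins are plant hormones derived from adenine that promote cell division and delay ageing of leaves. UGT76C1 and UGT76C2 are known to attach glucose to a nitrogen of the cytokinin ring, which takes the hormone out of its active form, while other UGTs attach glucose to the oxygen of the side chain. The VIM proteins bind methylated DNA and are known for keeping cytosine methylation in place when DNA is copied.

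The genotype check gave a mixed picture. VIM1 had log2 ratios of vim1,2,3 over Col of -2.22, -2.46, -1.61 and -0.74 on arrays 1 to 4 and was lower in the RNA labelled vim1,2,3 on all 4. VIM2 had -1.42, -1.31, 1.82 and 1.11, and VIM3 had -1.06, -1.29, 1.61 and 0.25. Both were thus lower in the RNA labelled vim1,2,3 on arrays 1 and 2 and higher on arrays 3 and 4. In the authors' deposited values VIM2 was blank on every array. VIM3 had -1.86, -1.99 and -1.22 there on arrays 1, 3 and 4 and was blank on array 2. The scanner's own ratios of VIM3 were 1.64 on array 3 and 0.09 on array 4. The deposited VIM3 values thus differ in sign on these arrays, and the cause was not tested. Where the probes lie relative to the mutations was not examined, so these values cannot settle the genotype of the RNAs. The ratios of the cluster members and the called genes are therefore also given without arrays 3 and 4 where a value could be had. The median spot intensity of an array was 949 to 1718 in the vim1,2,3 channel and 637 to 1270.5 in the Col channel. All 4 markers of green tissue and 3 of 4 root markers passed the filter on dim probes, the root marker EXPA7 being too dim. The green markers RBCS1A, RCA and GAPA were saturated in vim1,2,3 on all 4 arrays and CAB2 on 3. In Col, RBCS1A was saturated on 2 arrays, RCA and GAPA on 3 and CAB2 on 1. All 4 averaged below 0, between -0.66 and -0.08. The log2 ratio had an unadjusted p under 0.05 by limma in 3 of them, and none was called. Because saturation limited these ratios, no difference in green tissue is read from their sign or their p values. Of the seed markers CRA1 was too dim to be tested and SESA3 was saturated on every array in both channels, and 2 of 3 pollen markers were too dim to be tested. The seed marker OLEO1 averaged 0.42 and the pollen marker VGD1 averaged 0.03, and neither was called.

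UGT76C1 stood far above the rest of the cluster in the RNA labelled vim1,2,3. Its spot had median intensities of 63525, 65290, 65290 and 65290 in the vim1,2,3 channel of arrays 1 to 4, against 2319.5, 1745.5, 3614 and 3216.5 in the Col channel. The vim1,2,3 spot was saturated on 3 arrays and lay at 97.3% of the saturation limit on array 1, so the ratio is capped by the scanner. In Col the spot was 44.8 to 86.0 times as bright as its surroundings and well above background on all 4 arrays, so the wild-type level was measured and was not at the floor.

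After background correction and normalization within each array, the log2 ratio of UGT76C1 was 4.18, 4.50, 3.47 and 3.60, with a mean of 3.94 ± 0.48 (SD, n = 4), or 15.3-fold as measured. Every array had a ratio above 11-fold (18.1, 22.6, 11.1 and 12.2), and the ratios of arrays 3 and 4 lay below those of arrays 1 and 2. Without arrays 3 and 4 the mean was 4.34. The order of the arrays by ratio was the reverse of their order by Col spot. With the vim1,2,3 spot at or near the saturation limit throughout, these ratios cannot show whether the vim1,2,3 level differed between arrays. UGT76C1 had the 44th highest mean ratio of 20553 genes tested, and 10 of those 44 genes were saturated in the vim1,2,3 channel on at least 1 array.

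UGT76C2, the gene next to UGT76C1 and a cytokinin N-glucosyltransferase like it, did not share that pattern. Its spot intensities were 1777, 1950, 2679 and 2091 in the vim1,2,3 channel, against 2112, 1190, 2533 and 3144 in the Col channel. Both channels were well above background on all arrays, and their ranges overlapped. The log2 ratio was -0.58, 0.19, -0.28 and -0.99, with a mean of -0.41 ± 0.49 (SD, n = 4), and without arrays 3 and 4 the mean was -0.19. Leaving out 1 array gave means between -0.62 and -0.22.

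AT5G05880, the neighbour of UGT76C1 on the other side, had a dim probe. Its spot intensities were 516, 145, 206 and 189.5 in the vim1,2,3 channel, against 129.5, 101, 145 and 135.5 in the Col channel. The high vim1,2,3 value of array 1 came with surroundings of 353, against 68 to 77 on the other arrays, and the scanner marked that background as an outlier. The log2 ratio was 0.45, -0.31, -0.19 and -0.13, with a mean of -0.04 ± 0.34 (SD, n = 4), so only array 1 lay above 0. The mean was 0.07 without arrays 3 and 4, and it was 0.64 in the authors' deposited values, where array 2 is blank.

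AT5G05890 varied most from array to array. Its spot intensities were 385, 417, 927.5 and 876 in the vim1,2,3 channel, against 1379, 184.5, 684 and 1421 in the Col channel. The log2 ratio was -2.11, 0.46, 0.07 and -1.07, with a mean of -0.66 ± 1.16 (SD, n = 4), and the SD lay at the 96.2nd percentile of all genes tested. The spread was wider in the Col channel: the normalized level ranged over 1.61-fold in vim1,2,3 and over 6.40-fold in Col. The SD of the normalized log2 level was 0.31 in vim1,2,3 and 1.24 in Col, where the median gene had 0.33 in vim1,2,3 and 0.37 in Col. Without array 1 the mean ratio was -0.18 and without array 2 it was -1.03, so single arrays set much of its size. Without arrays 3 and 4 it was -0.83.

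AT5G05900 was too dim to enter the fit across all genes, with a spot clearly brighter than background on 2 of 4 arrays only. Its spot intensities were 148, 263, 215.5 and 201 in the vim1,2,3 channel, against 76, 83, 112.5 and 96 in the Col channel. The log2 ratio was 0.19, 0.70, 0.29 and 0.45, with a mean of 0.41 ± 0.22 (SD, n = 4), above 0 on every array, and it was 0.44 without arrays 3 and 4. With the scanner's own processed signals the mean was 0.86. That mean takes in a ratio of exactly 0 on array 1, where the spot was not well above background, beside 1.78, 0.67 and 0.98 on arrays 2 to 4. In the authors' deposited values, where arrays 1 and 2 are blank, the mean was 0.82.

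**Figure D1:**
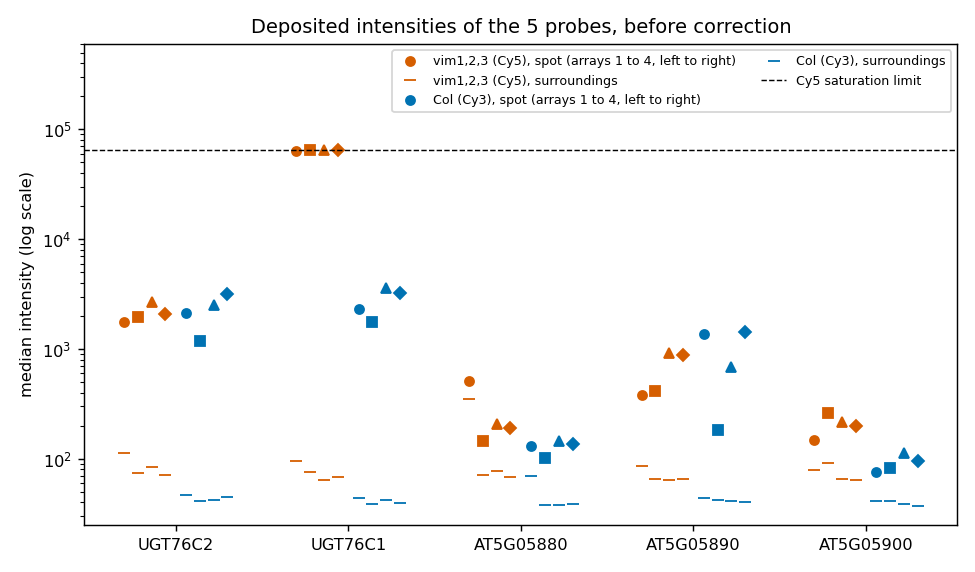
Median spot intensity (circles, squares, triangles and diamonds for arrays 1 to 4) and median intensity of the spot's surroundings (short lines) for the 5 probes, on a log axis, with vim1,2,3 left of Col for each gene. The UGT76C1 spots of vim1,2,3 sit at the dashed saturation limit, 63525 to 65290, while its Col spots lie between 1745.5 and 3614. The spots of the other genes reach at most 2679 in vim1,2,3 and 3144 in Col.

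**Figure D2:**
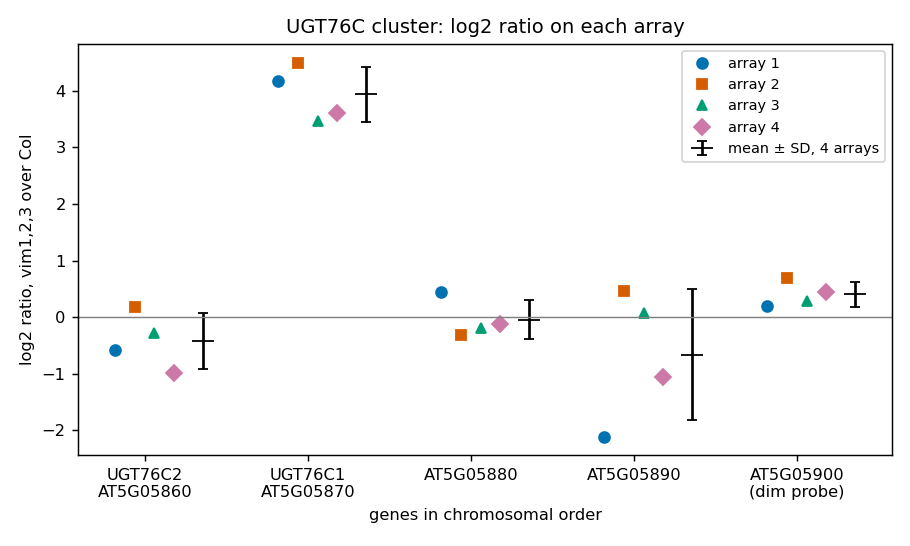
Log2 ratio of vim1,2,3 over Col on each array (coloured symbols) with the mean ± SD over 4 arrays (black) for the 5 genes of the cluster in chromosomal order. The 4 arrays of UGT76C1 lie between 3.47 and 4.50, and all other points of the cluster lie between -2.11 and 0.70.

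Within the cluster, then, UGT76C1 was alone in its ratio. Its lowest array value, 3.47, lay above the highest array value of any other member, 0.70 in AT5G05900. On the 4 arrays the gap from UGT76C1 to the next highest member was 3.73, 3.80, 3.18 and 3.15 on the log2 scale. UGT76C1 exceeded UGT76C2 by 4.35 ± 0.44, AT5G05880 by 3.98 ± 0.55, AT5G05890 by 4.60 ± 1.24 and AT5G05900 by 3.53 ± 0.43 on the log2 scale (mean ± SD, n = 4), and because the vim1,2,3 spot of UGT76C1 was saturated these differences are capped too. The array values of the other 4 members overlapped one another, except that the highest value of UGT76C2 and the lowest of AT5G05900 were both 0.19 and did not cross. Without arrays 3 and 4, UGT76C1 exceeded UGT76C2 by 4.54, AT5G05880 by 4.27, AT5G05890 by 5.17 and AT5G05900 by 3.90. The gap to the dim probes was narrower on single arrays with the scanner's processed signals, though UGT76C1 stayed highest on each. There AT5G05880 had 2.13 and UGT76C1 4.04 on array 1, and AT5G05900 had 1.78 and UGT76C1 4.53 on array 2. The ratios of UGT76C2 and AT5G05890 were both highest on array 2 and next highest on array 3. Whether the probes of these related genes also bind each other's transcripts was not tested, since probe sequences were not used here.

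A gene was called where the adjusted p of limma's moderated test across all genes was under 0.05 and the change was at least 2-fold. Over all 20553 genes tested, 661 were called higher in vim1,2,3 (3.22%) and 437 lower (2.13%), which is 5.34% in either direction. Of the 4 cluster members that entered the fit, 1 met the rule, UGT76C1, in the higher direction. Nothing is read from that count because this contrast chose the cluster.

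No locus on either side of the cluster was called. Of the 5 loci on each side in gene order, 8 matched a probe and 7 were tested, and limma called 0 of 7 (1 had an unadjusted p under 0.05), against 5.34% of all genes. That 1 was PIRL1, a leucine-rich repeat protein gene that borders UGT76C2, with log2 ratios of 0.31, 0.74, 0.87 and 0.15 and a mean of 0.52 ± 0.34 (SD, n = 4; adjusted p = 0.103 by limma). On the far side the nearest gene measured was GC1, annotated as guanylyl cyclase 1, with a mean log2 ratio of 0.07, and a further probe of GC1 gave 0.41. The means of the 7 loci ran between -0.09 in ATL43 and 0.52 in PIRL1, with a median of 0.07. In the plot of loci in order UGT76C1 is the one locus that stands off from 0 by more than 1 on the log2 scale.

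**Figure D3:**
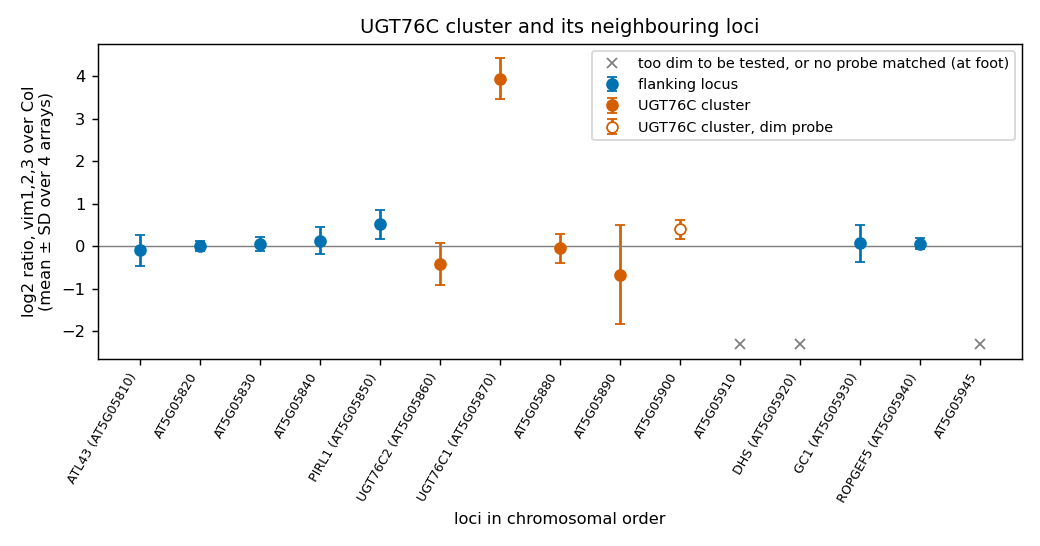
Mean log2 ratio of vim1,2,3 over Col, with the SD over 4 arrays as bars, for the cluster and the loci around it in chromosomal order (even spacing, not to genomic scale). UGT76C1 stands at 3.94, every other measured locus lies between -0.66 and 0.52, and crosses at the foot mark loci that were too dim or matched no probe.

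The genes whose 4 array ratios came closest to those of UGT76C1 lay elsewhere. By the root mean square difference over the 4 arrays they were AT5G24240 (0.33), AT5G45095 (0.33), AT4G40080 (0.36), AT2G11778 (0.38) and AT3G29639 (0.38). Their mean log2 ratios were 4.04 in AT5G24240, 3.76 in AT5G45095, 3.60 in AT4G40080, 3.79 in AT2G11778 and 3.61 in AT3G29639. They were picked for their likeness, and the differences are measured from ratios of UGT76C1 that saturation capped. Of the 5, AT3G29639 was saturated in the vim1,2,3 channel, on 2 arrays.

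Among the UGT genes listed here (5 in the cluster, 14 other UGT76 genes and 56 further UGT genes), UGT76C1 ranked first of 62 tested. Whether the lists hold every UGT gene of the genome was not examined. The next was UGT73D1 at 1.47 ± 1.92 (SD), which was not called (adjusted p = 0.186 by limma). AT5G05880 ranked 39th, UGT76C2 ranked 53rd and AT5G05890 ranked 55th.

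Outside the cluster the UGT76 family had 14 listed genes, of which 10 were tested. Of these, 1 was called higher and 1 lower, beside 3.22% and 2.13% of all genes. Their median log2 ratio was 0.29 against -0.05 over all genes. UGT76B1, whose enzyme glucosylates the defence compounds isoleucic acid and N-hydroxypipecolic acid, averaged 1.11 ± 0.66 (SD, n = 4; adjusted p = 0.0481 by limma). That call was lost with the scanner's processed signals (adjusted p = 0.156), the authors' deposited values (0.0707), no offset (0.0592), scaling between arrays (0.0596) and no filter on dim probes (0.0588), all by limma. AT5G38010 averaged -1.14 ± 0.45 over 3 arrays, its spot on array 1 having been dropped as an outlier (adjusted p = 0.0416 by limma). It was not well above background in vim1,2,3 on any array and was measured as 2.21-fold lower there on average. Its log2 ratios were -1.32, -1.48 and -0.63 on arrays 2, 3 and 4.

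Of 56 further UGT genes 48 were tested, with 3 called higher, 1 lower and a median of 0.21. Over all genes 3.22% were called higher and 2.13% lower. The 3 that rose were UGT85A5 at 1.42 ± 0.60 (adjusted p = 0.0267), UGT85A4 at 1.22 ± 0.50 (adjusted p = 0.0276) and UGT85A1 at 1.11 ± 0.41 (adjusted p = 0.0273), all SD with n = 4 and limma's test. Their relatives UGT85A7 (1.12), UGT85A2 (0.85) and UGT85A3 (0.53), named after their values were seen, were not called. UGT85A5 and UGT85A4 each had 2 probes, and the values above are those of the brighter one. With the mean of a gene's probes UGT85A5 averaged 1.15 (adjusted p = 0.0330) and UGT85A4 averaged 1.05 (adjusted p = 0.0312), both by limma and both still called. UGT85A1 is also the one gene that was called among the 2 tested cytokinin O-glucosyltransferases, and it is known to glucosylate the cytokinin zeatin. UGT78D1, which attaches rhamnose to flavonols, fell, with a log2 ratio of -1.06 ± 0.54 (SD, n = 4; adjusted p = 0.0395 by limma).

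**Figure D4:**
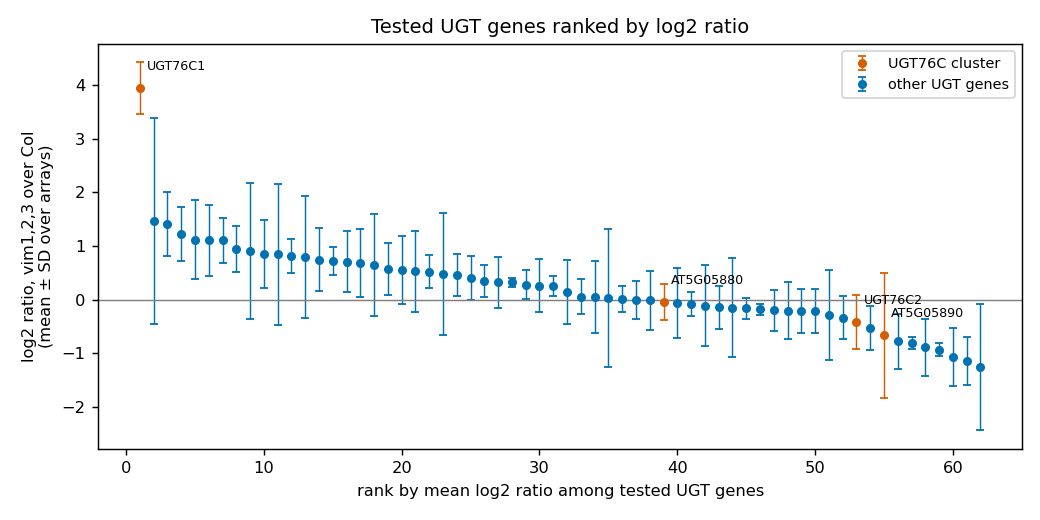
Mean log2 ratio of vim1,2,3 over Col, with the SD over arrays as bars, for the 62 tested UGT genes in order of the mean; cluster members are orange and other UGT genes blue. UGT76C1 at 3.94 stands clear of UGT73D1 at 1.47, while AT5G05880, UGT76C2 and AT5G05890 lie in the lower part of the order.

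Of the genes that glucosylate at the oxygen, make, activate, destroy or sense cytokinins, 37 were tested, and 1 was called higher and 3 lower, which is 10.8% beside 5.34% of all genes. Of 11 synthesis genes 8 were tested and limma called none (1 had an unadjusted p under 0.05), with a median log2 ratio of -0.09. The lowest p values there belonged to IPT9, for a tRNA-type isopentenyltransferase, at -0.53 ± 0.41 (adjusted p = 0.118 by limma) and IPT7, for an enzyme of the first step of synthesis, at 0.34 ± 0.46 (adjusted p = 0.289 by limma). Of 9 genes of the LOG type, which release the active hormone from its nucleotide, 5 were tested and 1 was called lower, LOG5 at -1.40 ± 0.32 (SD, n = 4; adjusted p = 0.0113 by limma). The LOG5 call was lost with the authors' deposited values (adjusted p = 0.0606 by limma).

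Of 7 cytokinin oxidase genes, whose enzymes break the hormone down, 6 were tested and 1 was called lower, CKX6 at -1.13 ± 0.59 (SD, n = 4; adjusted p = 0.0398 by limma, and 0.0526 with the scanner's processed signals). The median of the oxidase genes was -0.38. Of 9 genes for receptors and phosphotransfer proteins 7 were tested and limma called none (2 had an unadjusted p under 0.05). WOL, a cytokinin receptor, averaged -0.85 (adjusted p = 0.0391 by limma), short of 2-fold, and AHP5, a phosphotransfer protein, averaged 0.67 (adjusted p = 0.0502 by limma). Of 10 type-A response regulators, which are switched on by cytokinin and damp its signal, 9 were tested and 1 was called lower, ARR15 at -1.03 ± 0.53 (SD, n = 4; adjusted p = 0.0402 by limma). The median of the type-A regulators was -0.12.

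Each count in these lists is small, and together 9 of the 110 listed and flanking genes tested were called in either direction, beside 5.34% of all genes. None of the 9 calls held without array 3, when limma called 0 of 110 (30 had an unadjusted p under 0.05). With arrays 3 and 4 both left out the count was again 0 (18 had an unadjusted p under 0.05). The mean log2 ratios were then 1.12 in UGT76B1, 1.52 in UGT85A5, 1.499 in UGT85A4 and 1.32 in UGT85A1. They were -0.99 in UGT78D1, -1.48 in LOG5, -0.78 in CKX6 and -0.67 in ARR15, while AT5G38010 had 1 array left and no such value.

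**Figure D5:**
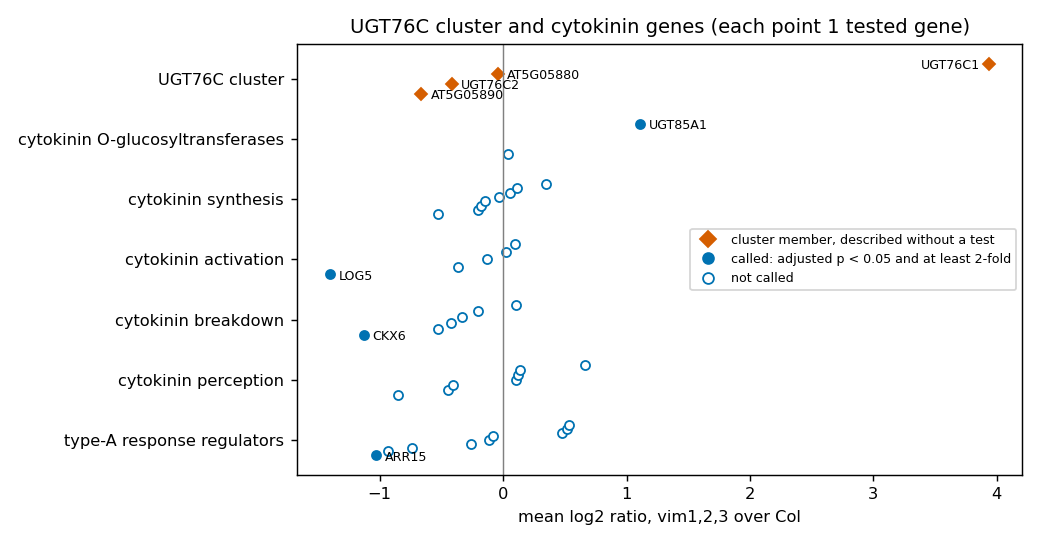
Mean log2 ratio of vim1,2,3 over Col for each tested gene of the cluster (diamonds, no test) and of 6 lists of cytokinin genes (circles, filled where called). UGT76C1 at 3.94 lies far to the right of every gene of the lists; UGT85A1 was called higher, and LOG5, CKX6 and ARR15 were called lower.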

How the data were processed

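The 4 two-colour Agilent arrays were deposited as scanner output with intensities in linear units and a log10 ratio of red over green; per the file headers, the software was Agilent Feature Extraction, version 10.7.3.1. The authors also deposited a table of processed log2 ratios, whose scale and direction were checked against the scanner's ratios (correlation 0.998 to 0.999 per array); its column medians were -0.09, 0.01, -0.04 and -0.03, and its centring is not stated.

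Here limma 3.58.1 (R 4.3.3) was applied to median intensities: normexp background correction with an offset of 50, loess within each array with control spots at weight 0, outlier spots removed, spots of a probe averaged. Of 43603 probes 34185 matched 25347 loci of a RefSeq table, by transcript accession, and the brightest tested probe stood for a gene. A gene was tested if its probe was well above background in either channel on at least 3 of 4 arrays. Ratios were fitted against 0 with the array as the unit, adjusted by Benjamini-Hochberg over 20553 genes and tested on simulated data. Each ratio already pairs the 2 RNAs of an array. All arrays lay on 1 slide, and their number limits the precision.

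The members and lists were chosen with earlier results of these data known. Named were all members; flanking loci called or nearest; in each list up to 6 called genes, or the 2 with the smallest p if none; the 5 genes most like UGT76C1; and the VIM genes. Alternatives were the scanner's processed signals, the deposited table, no offset, median centring, scaling between arrays, array weights, other filters on dim probes, the mean of a gene's probes, and leaving out each array; leaving out arrays 3 and 4 together was chosen after seeing the data.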

Additional observations from a re-analysis of the deposited data

Results flagged for a closer look

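On array 2 the difference of UGT76C1 minus AT5G05880 was 4.81 on the log2 scale, against 3.73, 3.66 and 3.73 on arrays 1, 3 and 4. Its gap to the nearest other array was 0.94 of the whole range, above Dixon's critical value for 4 samples. This was 1 of 30 sets of 4 values examined, and chance alone marks about 1 in 20 such sets. Array 2 held both the highest ratio of UGT76C1, 4.50, and the lowest of AT5G05880, -0.31. On that array the vim1,2,3 spot of UGT76C1 was saturated, and the spot of AT5G05880 was not well above background in either channel.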

How the results depend on the processing

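UGT76C1 kept a mean log2 ratio of 3.75 to 4.34 over 14 alternatives, limited upward by saturation. Of the other members AT5G05890 averaged between -1.03 and -0.18 with 1 array left out. AT5G05880 averaged 0.64 with the deposited table (array 2 blank). AT5G05900 averaged 0.86 with the scanner's processed signals (array 1 at exactly 0) and 0.82 with the deposited table (arrays 1 and 2 blank). UGT76C1 minus AT5G05880 was then 3.00 with the deposited table, and UGT76C1 minus AT5G05900 was 3.05 with the scanner's signals and 2.64 with the deposited table. The cause of these shifts was not tested.

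Genes called higher numbered 661, with 180 to 973 when 1 array was left out and 53 without arrays 3 and 4. Genes called lower numbered 437, with 778 by the scanner's signals, 673 by the deposited table, 32 to 589 when 1 array was left out and 0 by limma without arrays 3 and 4 (1246 had an unadjusted p under 0.05). Higher genes made up 60.2% of calls, against 42.2% with the scanner's signals and 47.4% with the deposited table. Without array 3 the counts were 180 higher and 32 lower, and without array 4 they were 197 higher and 58 lower. Calls among listed and flanking genes ran between 0 (without array 3, 30 with an unadjusted p under 0.05) and 8 when 1 array was left out, and were 0 without arrays 3 and 4.

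VIM2 changed sign with the scanner's signals (-0.14), no offset (-0.0010) and scaling between arrays (-0.055), ran between -0.54 and 0.54 with 1 array left out, and was -1.36 without arrays 3 and 4. VIM3 changed sign with array weights (0.18), ran between -0.70 and 0.27 with 1 array left out, and was -1.18 without arrays 3 and 4.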

Other observations

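Genes for making NAD and for handling nicotinate, another small molecule that UGTs glucosylate, were looked at as a list of 13, of which 12 were tested and limma called none (5 had an unadjusted p under 0.05), with a median log2 ratio of -0.19 against -0.05 over all genes. UGT74F2, which glucosylates salicylate and nicotinate, averaged 0.82 (adjusted p = 0.0374 by limma), short of 2-fold, and NIC1, for a nicotinamidase, averaged 0.68 (adjusted p = 0.0576 by limma). AO, for the L-aspartate oxidase that starts NAD synthesis, was named after its values were seen: it averaged -1.62 ± 1.46 (SD, n = 4) with -3.57 on array 2.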
